A study of Nematostella vectensis with 47 samples.

Results

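The genes described here are those of the starlet sea anemone Nematostella vectensis whose RNA passed a fold limit against the control in the gastrula offspring of morpholino-injected parents, and stayed within a narrower limit in drug-treated gastrulae and in the offspring of drug-treated parents. They are 412 of the 19231 counted protein-coding genes, of which 166 were higher and 246 were lower in the F1 morpholino lines (F1 MO). A gene was taken as a member from its CPM (its reads per 1000000 reads in the table) in 10 RNA-seq libraries. The log2 ratio of its group mean to the control mean, with 0.5 CPM added to each, had to lie between -0.4 and 0.4 in both drug groups and reach 0.8 or more, or -0.8 or less, in F1 MO. Both F1 MO libraries also had to lie outside the range of the other 8 on that side. The members were thus selected on these RNA values, and their RNA levels below are a description. The count model is given beside its background, and with other settings near the end, and supports nothing about them.

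Methylation of CpG sites in many invertebrates, including cnidarians, lies mostly in the bodies of transcribed genes. DNMT1 copies the mark onto the new DNA strand at replication with the help of UHRF1, so loss of either dilutes methylation as cells divide. GSK-3484862 (GSK) is an inhibitor of DNMT1, and translation-blocking morpholinos are antisense oligonucleotides that keep an mRNA from being translated.

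All RNA-seq and ATAC-seq libraries were made from whole gastrulae at 25 h post fertilization, with the genotype labelled Massachussets. The F0 DMSO group (3 RNA-seq and 2 ATAC-seq libraries) had 0.1% DMSO from the zygote on, and the F0 GSK group (3 and 3) had 5 µM GSK for 25 h. Zygotes of both came from pooled gametes of several animals in different broodstocks, each divided between the treatments. F1 GSK (2 and 2) and F1 MO (2 and 2) embryos had no treatment themselves. Each F1 GSK library is 1 line, from 1 pair of GSK-treated parents chosen for low methylation, and each F1 MO library is 1 line from parents injected as eggs with morpholinos against both DNMT1 and UHRF1. Family and F1 group therefore cannot be told apart, and in whole embryos fewer cells of a type cannot be told apart from less RNA per cell. CAGE, which maps transcription start sites, covered 2 untreated and 2 GSK gastrula libraries, and Nanopore methylation calls covered 1 sample each of gastrulae from an untreated cross, of sperm from 1 male that had been exposed to GSK, of gastrulae from crossing GSK-exposed with untreated parents, and of 1 juvenile from such a cross, aged 4 months. Neither assay covered the F1 MO lines in the files used here. The series also holds methylation libraries of these lines, made by enzymatic methyl sequencing (EM-seq), which were not analysed here.

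The RNA-seq libraries held 20823699 to 29358798 counts. F0 DMSO replicate 3 stood apart, with correlations of log2(CPM + 1) of 0.975 and 0.981 with the other controls, against 0.995 between those. The F1 MO lines correlated at 0.99. Without F0 DMSO replicate 3 the rule chose 179 higher and 275 lower genes, among them 98 and 155 of the members. Without F1 MO replicate 1 it chose 456 higher genes, against 158 without F1 MO replicate 2. The ATAC-seq libraries of the F1 MO lines stood much further apart, as given with those results.

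The 2 drug groups fixed the field from which the members were drawn. Both ratios lay between -0.4 and 0.4 in 11644 genes, called flat under GSK below. Of these, 232 passed 0.8 and 272 passed -0.8 in F1 MO. Both F1 MO libraries lay outside the other 8 on the high side in 8.74% of all counted genes and on the low side in 9.71%. Exchanging the roles of the groups, the same rule found 62 higher and 47 lower genes for F1 GSK alone, and 77 and 77 for F0 GSK alone, so the F1 MO set was the largest of the 3 by count. These groups share the DMSO libraries and differ in the number of libraries, and the difference between the counts was not tested.

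**Figure D1:**
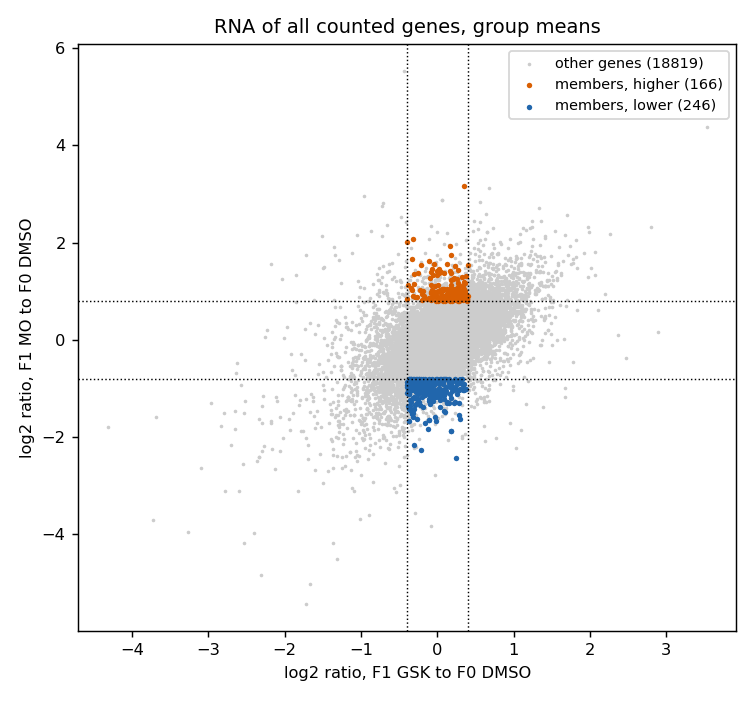
Each point is 1 of 19231 genes, placed by the log2 ratio of its mean RNA level in F1 GSK (horizontal) and F1 MO (vertical) to that in F0 DMSO, with 0.5 CPM added. The dotted lines mark -0.4, 0.4, -0.8 and 0.8. By construction the 166 higher and 246 lower members lie in the central column, above 0.8 and below -0.8. Grey points in those parts of the column missed the condition on F0 GSK or on the single libraries.

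Most members differed modestly from the control. The median log2 ratio was 0.94 among the higher members, with quartiles of 0.86 and 1.12, and -0.98 among the lower members, with quartiles of -1.16 and -0.87. Over all counted genes the median was 0.04. A ratio of 1.5 or more was found in 12 higher members, and of -1.5 or less in 18 lower members. The separation between F1 MO and the rest was often narrow. The nearest F1 MO library was a median of 1.28 times the highest other library in the higher members, and the lowest other library was a median of 1.37 times the nearest F1 MO library in the lower members. This distance reached 1.5 times in 32 higher and 84 lower members. The 2 lines differed from each other by a median of 0.33 on the log2 scale in the higher members and 0.20 in the lower members, up to 1.60 and 1.07. Within their limits the members leaned the same way in the GSK groups. The median log2 ratio was 0.20 in F0 GSK and 0.18 in F1 GSK for the higher members, and -0.18 and -0.11 for the lower members, against 0.01 and 0.02 in all genes flat under GSK. All of these ratios share the DMSO libraries. Against F1 GSK, the other F1 group, the median log2 ratio of F1 MO was 0.83 and -0.92.

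Members were of medium abundance. The median level in F0 DMSO was 9.48 CPM for the higher and 13.8 CPM for the lower members, against 13.9 CPM over all counted genes and 20.4 CPM over the genes flat under GSK. Under 1 CPM lay 32 of the higher members (19.3%) and 12 of the lower (4.88%), against 20.9% of all genes. For the former the added 0.5 CPM sets much of the ratio. The most abundant member was LOC5522169, a lower member at 1450 CPM in F0 DMSO. CPM is not scaled by gene length, so comparisons of level between genes or sets of genes are rough.

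The lowest ratio belonged to LOC116610374 on chromosome 4 (6410260 to 6412638, assembly jaNemVect1.1). It had 5.3, 6.63 and 8.34 CPM in F0 DMSO, 6.38, 4.93 and 5.31 in F0 GSK and 6.25 and 9.96 in F1 GSK, but 0.82 and 0.864 in F1 MO, or 19 and 18 reads. The F1 MO mean was 8.02-fold below the DMSO mean, and the lowest other library was 5.71 times the nearer F1 MO library. The other 8 libraries ranged from 4.93 to 9.96 CPM, and both lines were about equally low. The log2 ratio was -2.43, and it moved from -2.07 to -2.86 as the added value was set to 1 or 0.1 CPM.

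A further 3 of the lower genes were abundant and long. LOC5504026 (chromosome 4, 8449631 to 8497012) had 129, 161 and 123 CPM in F0 DMSO, 174, 62 and 114 in F0 GSK, 111 and 127 in F1 GSK, and 20.3 and 35.8 in F1 MO. One F0 GSK library lay well below its group, and both F1 MO lines lay lower still. LOC5506873 (chromosome 13, 14008317 to 14058824) had 112, 94.4 and 94.4 CPM in F0 DMSO, 92.9, 115 and 103 in F0 GSK, 105 and 57.9 in F1 GSK, and 23.7 and 20 in F1 MO. LOC5509332 (chromosome 4, 5962638 to 6006853) had 124, 105 and 81.5 CPM in F0 DMSO, 89.9, 87 and 119 in F0 GSK, 105 and 129 in F1 GSK, and 29.2 and 26.5 in F1 MO. Their means in F1 MO were 4.91-fold, 4.6-fold and 3.71-fold below F0 DMSO. LOC5506873 overlaps 4 other annotated genes, which makes its count uncertain.

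The other lower genes of the first 10 repeated this pattern at lower levels. LOC5514566 on chromosome 6 lay at 25.8 to 47.4 CPM in the other 8 libraries and at 12.5 and 7.92 in F1 MO. LOC5519548, a gene of 833 bp on chromosome 13, varied little among the others, from 24.3 to 31.1 CPM, and had 8.76 and 8.12 in F1 MO. For LOC116611607 on chromosome 11 the levels were 8.34 to 15.1 CPM against 3.54 and 3.51. In these genes the F1 MO lines agreed to within a log2 ratio of 0.63, and the others were 2.06 to 2.77 times higher at the nearest library. LOC116605099 on chromosome 8 varied more among the others, 15.7 to 40.9 CPM, and had 5.87 and 8.4 in F1 MO. LOC5507118 on chromosome 7 had 5.86 to 11.6 CPM against 2.5 and 1.78. LOC116616594 on chromosome 12 rested on few reads, with 27 to 64 in the other libraries and 5 and 8 in F1 MO. LOC116605099, LOC5507118 and LOC116616594 also overlap annotated genes, so their counts are uncertain too.

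The highest ratio, 3.17, belonged to LOC5516744 on chromosome 2 (15652714 to 15658795), and here the lines differed. It had 9.41, 9.27 and 7 CPM in F0 DMSO, 5.6, 13.8 and 9.74 in F0 GSK, 17.9 and 4.29 in F1 GSK, and 41.6 and 121 in F1 MO. The mean was 9.48-fold above F0 DMSO, with replicate 2 well above replicate 1. LOC5504187 on chromosome 7 (9423919 to 9443827) had 9.06 to 19.9 CPM in the other libraries and 45.2 and 86.6 in F1 MO. LOC5520095 on chromosome 3 had 0.829 to 1.95 CPM in the others and 3.88 and 7.3 in F1 MO. In each of these 3 genes F1 MO replicate 2 was the higher line. It was further from DMSO than replicate 1 in 106 of the 166 higher members and in 143 of the 246 lower members.

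Both lines were alike in other genes. LOC5508744 on chromosome 5 (9349529 to 9361527) had 2 to 24 reads in each of the other libraries and 72 and 65 reads in F1 MO, or 3.11 and 3.12 CPM. LOC5516591 on chromosome 4 was listed at 0 to 17 reads in the others, including 0 in F0 DMSO replicate 3, and at 41 and 34 in F1 MO. The most abundant of the first 10 was LOC5513227 on chromosome 3 (9710629 to 9722378), with 188, 203 and 182 CPM in F0 DMSO, 204, 212 and 232 in F0 GSK, 311 and 122 in F1 GSK, and 704 and 574 in F1 MO. Its F1 MO mean was 3.34-fold above F0 DMSO, and the F1 GSK lines stood on either side of the F0 libraries.

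In the other 4 of the first 10, replicate 2 carried most of the distance. LOC5521651 on chromosome 2 had 4.96 CPM in F1 MO replicate 1, only 1.09 times the highest other library, and 16.1 in replicate 2. LOC5517104 on chromosome 1 had 3.58 and 8.26 CPM against at most 2.73 elsewhere. LOC5520568 on chromosome 12 had 27.1 and 50.4 CPM against 8.39 to 17.8. LOC5514110 on chromosome 2 had 29.2 and 54.1 CPM against 9.12 to 21.2. Of the first 10 higher genes, LOC5514110, LOC5521651, LOC5516744 and LOC5504187 each overlap another annotated gene, which makes their counts uncertain. In the plot of single libraries the F1 MO lines often lie further apart in the higher than in the lower genes.

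**Figure D2:**
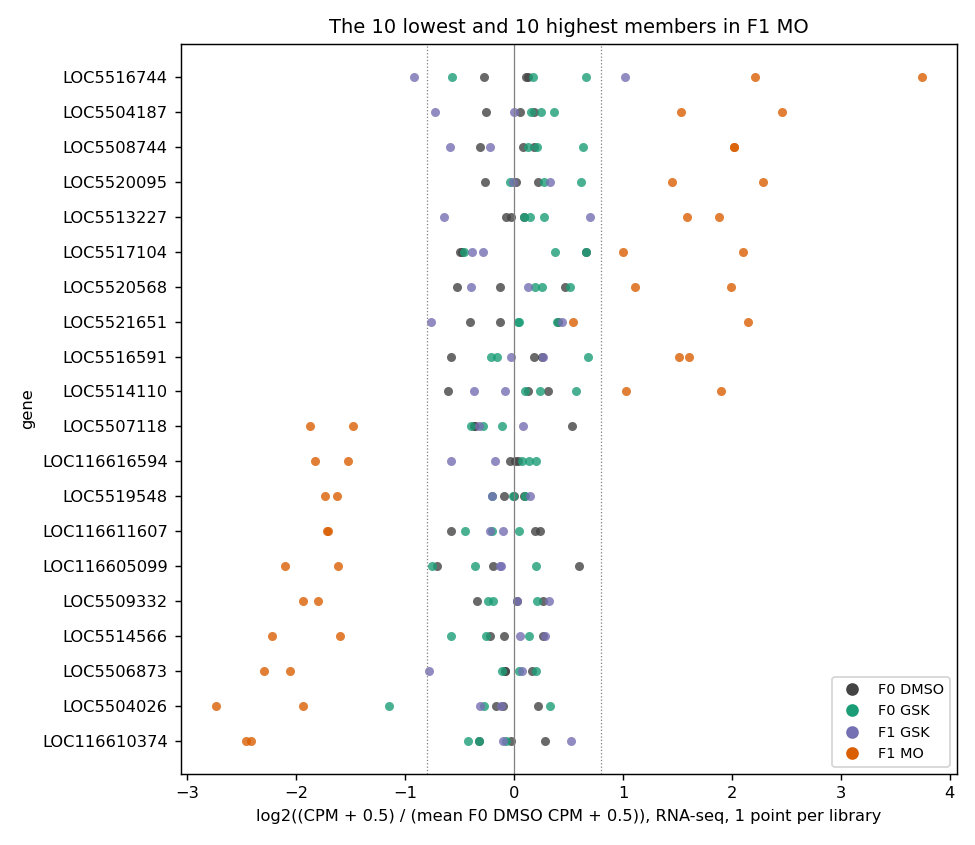
The 10 members with the highest and the 10 with the lowest log2 ratio in F1 MO, 1 gene a row, with 1 point for each of 10 RNA-seq libraries. The horizontal axis is the log2 ratio of the library's CPM to the F0 DMSO mean, with 0.5 CPM added, and dotted lines mark -0.8 and 0.8. The F1 MO points lie together on the left for the lower genes and are more spread for the higher genes, as in LOC5516744 with 41.6 and 121 CPM.

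Genes just inside and just outside the limit had nearly equal ratios. LOC5505995 and LOC5514560 were just inside at 0.801. For LOC5505995 the levels were 93.3 to 163 CPM in the others and 263 and 241 in F1 MO. LOC5515170 and LOC116618086 were just outside at 0.8 and 0.799 after rounding. On the low side LOC5506522 (-0.8) and LOC5516868 (-0.802) were just inside, and LOC116601971 and LOC116603398 (both -0.8 after rounding) just outside.

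In the count model, fitted to all genes with the same libraries, the number of members called depended on the fit. In edgeR's quasi-likelihood test of F1 MO against F0 DMSO at a Benjamini-Hochberg adjusted p (FDR) under 0.01, 2 of the 166 higher members were called, where 0.0955% of the 16750 tested genes were called higher. Of the 245 lower members tested, 5 were called, where 0.472% of the tested genes were called lower. At an FDR under 0.05 the counts were 55 and 102, against 2.05% and 3.75% of the tested genes. At an FDR under 0.01 DESeq2 called 226 members among 1479 genes, and edgeR with all groups in the fit called 100 among 563, against 7 among 95 here. As the same contrast chose the genes, nothing is read from these shares. The called members were LOC5506873, LOC5504823, LOC5509332, LOC5519548 and LOC5504026 on the low side and LOC5513227 and LOC5512247 on the high side. The number called hung on single libraries. It was 127 without F0 DMSO replicate 3 and 0 without either of the other F0 DMSO replicates or either F1 MO replicate.

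LOC5504823 and LOC5512247 have not been described above. LOC5504823 on chromosome 1 (3091352 to 3106551) had 65, 64 and 59.2 CPM in F0 DMSO, 48.8, 50.2 and 51.1 in F0 GSK, 52.2 and 46.5 in F1 GSK, and 22.2 in each F1 MO line. Both GSK groups lay below all 3 controls at log2 ratios of -0.32 and -0.34, inside the limit of the rule. LOC5512247 on chromosome 13 (4254059 to 4255530) had 142, 119 and 136 CPM in F0 DMSO, 150, 156 and 110 in F0 GSK, 169 and 151 in F1 GSK, and 310 and 411 in F1 MO.

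Members were spread over the genome. They made up 1.61% of the counted genes on chromosome 5, the lowest share, and 2.67% on chromosome 6, the highest of the 15 chromosomes. Only 2 members lay on unplaced scaffolds. The median gene length was 6131.5 bp for the higher and 5648.5 bp for the lower members, against 6180 bp for all genes, and the median number of annotated transcripts was 1 in each set. In 14 cases 2 members were next to each other, which involved 27 of the 410 placed members (6.59%), while 778 of the 18796 other placed genes (4.14%) had a member as a next gene. The pairs had the same direction in 8 cases and opposite directions in 6.

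Several of these pairs lie close enough to share reads. Of the 14 pairs, 3 overlap in the annotation: LOC5509812 with LOC5509837 on chromosome 1, LOC5511446 within LOC5511426 on chromosome 11, and LOC5507047 with LOC5507048 on chromosome 13. In all 3 both genes were lower. LOC5507047 had 371, 394 and 335 CPM in F0 DMSO, and 193 and 156 in F1 MO, while LOC5507048 had 1.62, 1.34 and 2.68 and then 0.82 and 0.816. Whether reads of the abundant gene were counted for its neighbour was not tested. LOC116612004 and LOC116612005 on chromosome 2 lie 126 bp apart with a similar imbalance, at 168 and 237 CPM against 0.777 and 1.82 in F1 MO. Neither the strand of the genes nor the use of strand in counting was given in the sources used here. In all, 151 of the 412 members, and 8 of the 20 with the extreme ratios, overlap another annotated gene, and their counts are uncertain to that extent. On chromosome 9 LOC5511011, LOC5510996 and LOC5511012 follow each other as a higher, a lower and a higher member.

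Methylation was measured independently of the rule, in other animals. A gene counted as methylated at 10% mCG or more (5-methylcytosine calls among valid calls, over CpGs with at least 10 calls, at least 5 CpGs per gene) in the untreated gastrula, which had a mean of 33.5 calls per CpG and 12.3% mCG over the chromosomes. Of the higher members 80 of 163 measured genes were methylated, or 49.1% (95% exact binomial interval 41.2 to 57). Of the lower members 79 of 242 were methylated, or 32.6% (26.8 to 38.9). The share was 48.3% over all measured genes and 52.6% over those flat under GSK. The higher members thus lay near all genes, and the lower members had a smaller share. The intervals treat genes as independent and cover counting only. The median RNA level in F0 DMSO was 13.8 CPM in the lower members and 20.4 CPM in the genes flat under GSK, and the part of RNA level in the difference was not tested.

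Among the methylated members the median mCG was 36.9% in the higher and 34% in the lower members, against 39.7% in all methylated genes. At 60% mCG or more were 15 higher and 13 lower members, or 9.2% and 5.37%, against 10.8% of all genes, a share inside the interval of the higher members (5.24 to 14.7) and above that of the lower (2.89 to 9.01). Members below 10% were close to unmethylated, with medians of 0.145% and 0.124%. Among the 20 genes with the extreme ratios 8 were at 10% or more, from 10.7% in LOC116610374 to 26.7% in LOC116616594. Of these, 6 were lower members and 2 were higher members.

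The methylated members were lower in the GSK-derived samples to about the degree of all methylated genes. In GSK sperm the median of the methylated members was 16.5% (higher) and 13% (lower), against 17.1% in all methylated genes. In the F1 gastrulae of a GSK-exposed parent it was 24.1% and 21.8%, against 27.3%, and in the F1 juvenile 23.4% and 18.5%, against 26%. All 80 methylated higher members and 78 of 79 lower members were below their baseline in sperm, as were 99.4% of all methylated genes. With 1 sample of each kind there is no replicate check, and none of these samples is an F1 MO line.

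**Figure D3:**
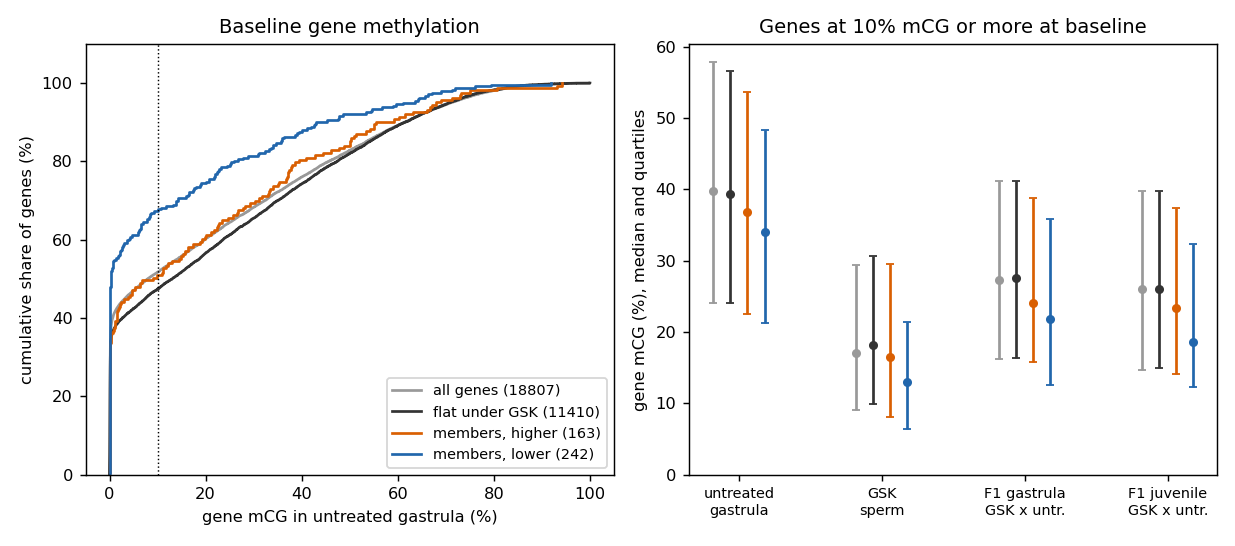
Left, the cumulative share of genes (vertical, %) at or below each mCG level in the untreated gastrula (horizontal, %), for all genes, genes flat under GSK, and higher and lower members. The dotted line is at 10%. Right, the median and quartiles of mCG (%) in 4 Nanopore samples for genes at 10% or more at baseline. The lower members reach 10% less often (32.6%) than the higher (49.1%), and the 4 sets drop together in sperm and F1 samples.

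Single methylated members differed in this. LOC5504823 had 53.4% mCG at baseline (228 CpGs, 8049 calls), 21.5% in sperm, 37.7% in F1 gastrulae and 27.2% in the F1 juvenile. LOC5504026 went from 21.9% to 3%, 3.1% and 2.67%, so the F1 samples stood as low as sperm. LOC116605099 went from 21.9% to 1.06% in sperm but stood at 18.4% and 23% in F1. By contrast LOC5513227 and LOC5512247, both higher in F1 MO, had 1.56% and 1.46% mCG at baseline. LOC125561001, the most methylated member at 94.1%, had 91%, 88% and 95.6%, over 8 CpGs.

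Start sites were seen in a minority of members. As gene strand was not known, plus-strand CAGE clusters within 500 bp of the left end and minus-strand clusters within 500 bp of the right end were counted. Such a cluster may belong to a neighbouring gene or to antisense transcription. At least 1 untreated library listed one for 74 of 166 higher members (44.6%, interval 36.9 to 52.5). The same held for 88 of 244 lower members (36.1%, 30 to 42.4). This was found for 45.3% of all genes and 51.1% of those flat under GSK. The deposited clusters were filtered for low signal, so no cluster does not mean no transcription. Of the 20 genes with the extreme ratios only LOC5506873, LOC5519548 and LOC5513227 had one. Where all 4 libraries listed a cluster, the median log2 ratio of GSK to untreated signal was -0.1 in 71 higher members and 0.03 in 86 lower members, against -0.23 in all 8458 such genes. LOC5513227 had start signals of 1040 and 1240 in the untreated and 725 and 690 in the GSK libraries. LOC5519548 had 26.9 and 20.2, and 61.3 and 95.5 with GSK. Its RNA level was held flat there by the rule.

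Accessibility in the F1 MO lines was measured with little agreement between libraries. The F1 MO ATAC-seq libraries correlated with each other at 0.65 in log2(CPM + 1), against 0.974 for F0 DMSO and 0.773 for F1 GSK. Their log2 values differed with an SD of 1.79 over peaks, against 0.342 for F0 DMSO. They held 14046962 and 12525960 counts in peaks, against 31015826 and 33980509 for F0 DMSO, and 5398 and 6075 of the 36284 peaks had 5 or fewer counts, which no peak did in F0 DMSO. With this spread a test of single peaks has little power, and a p that misses the threshold does not show that accessibility was alike.

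Of the 412 members, 342 had a peak inside or within 500 bp of an end, with 294 peaks for the higher and 475 for the lower members. In edgeR's quasi-likelihood test of F1 MO against F0 DMSO 0 of 36277 peaks were called at an FDR under 0.01 (0% in each direction), and at an unadjusted p under 0.05 there were 2030 higher and 4723 lower peaks. DESeq2 called 6642 peaks, in 101 members. F1 MO against F1 GSK also gave 0 calls, with 1000 higher and 2559 lower peaks at an unadjusted p under 0.05, and DESeq2 called 1267 peaks, in 26 members. Leaving out 1 F1 MO library gave 22181 calls without replicate 1 and 21176 without replicate 2, in 252 and 231 members. The lone F1 MO library is then assumed to vary like the 2 F0 DMSO libraries. For none of these fits was the share of all genes with a called peak counted, so nothing is read from the numbers of members.

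End peaks lie at either end of a gene, since strand was not known, and so include promoters and other ends. The median edgeR log2 ratio of F1 MO to F0 DMSO was 0.14 over 109 end peaks of higher members and 0.04 over 171 end peaks of lower members, against 0.13 over 10668 end peaks of all genes. In plain CPM the medians of the 2 lines were -0.07 and -0.12 for the higher members, -0.1 and -0.22 for the lower, and -0.09 and -0.17 for all genes, so the sign of these values depends on the scaling. The lines lay on opposite sides of F0 DMSO in 50 of the 109 and 78 of the 171 peaks. Both lines lay above all 7 other libraries in 6 end peaks of higher members (5.5%) and below them in 33 end peaks of lower members (19.3%). The opposite sides held 18 end peaks of higher members (16.5% below) and 11 of lower members (6.43% above). Over the end peaks of all genes 8.46% lay above and 15.1% below, and over all peaks 7.47% and 18.1%. The differences between these shares were not tested.

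**Figure D4:**
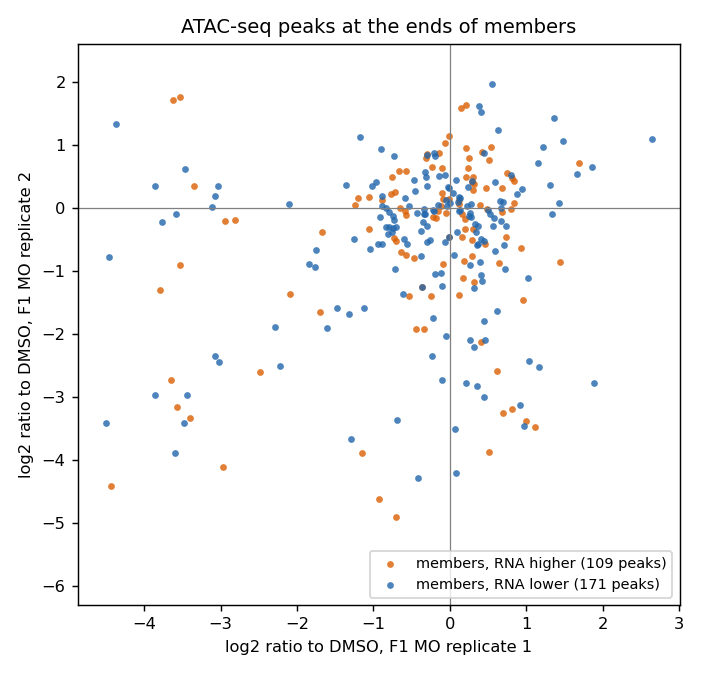
ATAC-seq peaks within 500 bp of an end of a member, placed by the log2 ratio of CPM to the F0 DMSO mean in F1 MO replicate 1 (horizontal) and replicate 2 (vertical), with 0.5 CPM added. The 109 peaks of higher and 171 peaks of lower members overlap throughout, and many are low in 1 line only.

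Inside the genes the median was 0.32 over 185 peaks of higher members and 0.05 over 304 peaks of lower members, against 0.11 in all genes. In plain CPM the medians of the 2 lines were 0.11 and -0.28 for the higher members, -0.33 and -0.36 for the lower, and -0.18 and -0.29 for all genes, so here too the sign depends on the scaling. Both lines lay above all 7 other libraries in 22 inner peaks of higher members (11.9%) and below them in 32 (17.3%). In lower members they lay above in 20 inner peaks (6.58%) and below in 65 (21.4%). Over the inner peaks of all genes 7.25% lay above and 19.3% below, and the differences were not tested. Peaks were counted as methylated at 20% mCG or more over at least 3 CpGs. This was so for 33 of 288 peaks of higher members (11.5%) and 39 of 469 of lower members (8.32%), against 13.7% of all gene peaks. Over the methylated peaks the median log2 ratio to F0 DMSO was 0.33 in F1 MO and 0.51 in F1 GSK for higher members, and -0.35 and 0.33 for lower members. All methylated gene peaks had medians of 0.37 and 0.41. The negative median of the lower members in F1 MO rests on 39 peaks, has quartiles of -0.74 and 0.39, and was not tested.

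The F0 libraries agreed better, and there the test called peaks in members. The rule held the members' RNA flat in F0 GSK, so these calls show nothing about a link with RNA. In edgeR's test of F0 GSK against F0 DMSO 1.44% of the 36284 peaks were called higher and 0.229% lower at an FDR under 0.01. Of the peaks of higher members, 4 of 294 (1.36%) were called higher, and of the peaks of lower members 3 of 475 (0.632%), shares at or below that background. None of the members' peaks was called lower. All 7 called peaks lay inside the genes, and 6 of them were methylated at baseline. The same shares over all called peaks were not counted here. The paper describes most peaks opened by GSK as methylated before, and these as largely intronic, so neither trait is particular to the members.

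The clearest was in LOC5519662 on chromosome 4 (8214335 to 8214927), 91.4% methylated, with 6.87 and 6.12 CPM in F0 DMSO, 26.7, 33.9 and 28.7 in F0 GSK, 11.8 and 7.22 in F1 GSK, and 0.427 and 0.639 in F1 MO. The log2 ratio of F0 GSK to F0 DMSO was 2.18 ± 0.22 (SE), with an adjusted p of 4.04e-10 in edgeR, while the F1 MO lines lay below every other library. A peak in LOC116621119 on chromosome 3 (1843469 to 1847245), 52.1% methylated, had 58.4 and 57.7 CPM in F0 DMSO, 112, 99.7 and 97.1 in F0 GSK, 87.4 and 123 in F1 GSK, and 103 and 138 in F1 MO. Here all 7 libraries with GSK or morpholino ancestry were above both controls. The gene is a lower member, so the rule itself kept its RNA in the GSK groups within the narrower limit. The other 5 were in LOC5501255, LOC5516601, LOC5504881, LOC5513033 and LOC5516471. These calls depended on the libraries in the fit. Members with a called peak numbered 13, among 894 called peaks, without F0 GSK replicate 1, 3 among 222 without F0 DMSO replicate 1 and 1 among 225 without F0 DMSO replicate 2, against 7 among 605 here. With all groups in the fit no peak was called. The main fit also leaves out that each broodstock was divided between the treatments. With a replicate block edgeR called 569 peaks, in 9 members, though that the replicate numbers mark broodstocks is not stated. DESeq2 without a block called 768, in 7 members. The share of all genes with a called peak was not counted for any of these F0 GSK fits. Nothing is read from their numbers of members. F1 GSK against F0 DMSO gave 0 calls among all peaks in edgeR, with 1784 higher and 1597 lower at an unadjusted p under 0.05, and 90 in DESeq2.

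Among the genes with the extreme ratios, peaks at the ends gave no common direction. The end peaks of LOC5504026 had 20.2 and 21.4 CPM in F0 DMSO and 11.7 and 16.7 in F1 MO for one, and 25.9 and 21 against 17.9 and 13.6 for the other. LOC5514566, also lower in RNA, had 13.4 and 10.1 CPM in F0 DMSO and 26.8 and 19.6 in F1 MO at one end peak. LOC116605099 had a peak inside the gene (2823533 to 2823879), 45% methylated at baseline, that had 145 to 249 reads in each of the other 7 libraries and 1 read in each F1 MO library. Its adjusted p in edgeR was 0.145, the smallest value that any peak reached in this contrast.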

How the data were processed

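The members and the properties described were chosen with earlier results of these data known. RNA-seq values are whole-number counts per gene as the authors deposited them (polyadenylated RNA; the methods describe HISAT2 with TElocal and, in parallel, Kallisto, and which made this table is not given). ATAC-seq values are insertion counts per merged MACS3 peak, as the authors deposited them, from Chromap alignments and featureCounts. CAGE values are the signal of start-site clusters, power-law normalized by the authors with CAGEr. Nanopore files hold counts of valid and modified calls per CpG as the authors deposited them (Dorado, Modkit). No file values were rescaled before CPM was taken.

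edgeR 4.0.16 (TMM, filterByExpr, glmQLFTest, only the 2 groups compared) and DESeq2 1.42.0 were run in R 4.3.3, with FDR under 0.01. Only edgeR was tried on simulated data, with changes larger than those of most members, in features above a minimum mean count. Such changes were recovered in the RNA-seq and F0 GSK ATAC-seq contrasts but not in the F1 MO ATAC-seq contrasts. Other steps used Python 3. All 19231 gene IDs matched RefSeq genes of jaNemVect1.1, whose table gives no strand, function or sequence. The 19 lists of gene functions and cell types prepared from descriptions therefore matched nothing, so tissue identity was not checked and no roles are given. A start cluster is a plus-strand cluster within 500 bp of a gene's left end or a minus-strand cluster within 500 bp of its right end. The 10 members highest and lowest in F1 MO, those with a called peak (none), neighbouring members and those at the limits are named by rule. LOC5522169 and LOC125561001, members named as called in RNA or in F0 GSK peaks, and those under other observations were named after their values were seen. EM-seq was not analysed here. Where separate cultures are not stated, p-values measure the spread between samples, which may be technical. Intervals cover counting error only.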

Additional observations from a re-analysis of the deposited data

How the results depend on the processing

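Changing 1 choice at a time, the rule chose 154 to 189 higher and 206 to 290 lower genes. The choices were other pseudocounts (1 and 0.1 CPM), TMM or DESeq2 scaling, or a minimum of 1 CPM. No member changed direction, but the rule leaves little room for that, as both F1 MO libraries had to lie outside the others. Of the members, 125 of 166 and 205 of 246 were chosen again with TMM, 134 and 206 with DESeq2 scaling, 127 and 190 with 1 CPM added and 134 and 219 with 0.1 CPM. With a limit of 1 in place of 0.8 it chose 66 and 114. Leaving out 1 library gave 117 to 456 higher genes, the most without F1 MO replicate 1, and 212 to 361 lower genes. The 20 genes with the extreme ratios kept their sign throughout, which the rule largely fixed in advance. Without F1 MO replicate 2 the log2 ratio of LOC5521651 was 0.55, below the limit of 0.8. As the same contrast chose the members, nothing is read from their counts in the RNA fits that follow. Against the 95 genes called in RNA, 7 of them members, DESeq2 called 1479 and 226, a fit with all groups 563 and 100, and an FDR under 0.05 971 and 157. A replicate block called 1990 and 249, but the numbers do not pair F1 lines with F0 wells (correlations of deviations 0.198 and -0.209). It called 0 peaks in both F1 MO contrasts. Leaving out 1 library gave 0 to 822 RNA calls and 0 to 127 called members. In ATAC-seq, F1 MO against F0 DMSO gave 6642 calls in DESeq2 (101 members), 2 with all groups, and 0 to 22181 leaving out 1 library (0 to 252 members). F1 MO against F1 GSK gave 1267 in DESeq2 (26 members) and 0 to 7 leaving out 1 library. For the GSK contrasts the alternatives were chosen after seeing the data. F0 GSK against F0 DMSO gave 605 calls in 7 members, 0 in 0 with all groups, where the F1 spread is shared, and 222 to 894 calls in 1 to 13 members leaving out 1 library. F1 GSK against F0 DMSO gave 0, 90 in DESeq2, 6 with a replicate block and 0 to 12465 leaving out 1 library. From 20% mCG, 39.3% of higher and 25.6% of lower members were methylated. Members within 50 kb of another numbered 88, against 27 with a member as next gene. Call minimums, added 5hmC and CAGE settings moved no share beyond its interval. The numbers of members with a called peak were not set beside the share of all genes, and nothing is read from them. The ATAC-seq depth and spread of the F1 MO lines limit every statement on their accessibility.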

Other observations

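A further 3 members were singled out after their values were seen. LOC116610316 on chromosome 8 (2844864 to 2879560), a lower member, had 602, 764 and 920 CPM of RNA in F0 DMSO and 435 and 407 in F1 MO. It held the peak with the smallest unadjusted p of those that lay on the side of the member's RNA change (2868960 to 2870386). That peak had 101 and 102 CPM in F0 DMSO, 86.5 to 122 in F0 GSK, 132 and 97.3 in F1 GSK, and 11.3 and 14.2 in F1 MO, a log2 ratio of -2.79 ± 0.25 (SE) with an adjusted p of 0.145 in edgeR. It lies near LOC116605099, whose inner peak had 1 read in each F1 MO library. The part of sequence differences between families in these losses was not tested.

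LOC5501806 on chromosome 14, a higher member with 1.61 to 1.84 CPM in F0 DMSO and 3.15 and 4.08 in F1 MO, had inner peaks that were higher in both F1 MO lines than in all other libraries. One (13538222 to 13539476) was 90.4% methylated in the untreated gastrula and had 19.8 and 18.7 CPM in F0 DMSO, 22.6 to 24 in F0 GSK, 33.3 and 33.6 in F1 GSK, and 69.7 and 48.4 in F1 MO, with an adjusted p of 0.145 in edgeR. Another (13530721 to 13532198), 26.1% methylated, had 50.8 and 41.7 CPM in F0 DMSO and 103 and 102 in F1 MO. These peaks were picked from those on the side of the RNA change, so they show no link between RNA and accessibility.

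LOC5512247 had CAGE start signals of 160 and 206 in the untreated libraries and 477 and 549 in the GSK libraries, while its RNA-seq log2 ratio in F0 GSK was 0.07.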
